A study of Rattus norvegicus with 6 samples.

Results

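Decorin, biglycan, asporin, lumican, fibromodulin, prolargin and osteoglycin are small leucine-rich proteoglycans, and versican is a large proteoglycan of the same pericellular matrix. Their 8 genes (Dcn, Bgn, Aspn, Lum, Fmod, Prelp, Ogn and Vcan) were found by name, and each matched 1 row among the 34257 genes of the deposited table. The libraries were made from poly(A) RNA of neonatal rat ventricular cardiomyocytes, heart muscle cells isolated from newborn rats and cultured. The design has 3 vehicle libraries and 3 libraries of cells exposed for 24 h to 1 µM perhexiline. Perhexiline is an antianginal drug that inhibits the entry of long-chain fatty acids into mitochondria, and the comparison asks how it changed gene expression in these cells. The labels name no strain, sex or vehicle, and whether each replicate was its own culture or animal is not said, so a p-value here speaks of the spread among libraries, possibly technical.

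Small leucine-rich proteoglycans are secreted proteins whose curved leucine-rich repeats bind collagen fibrils and set their width and spacing, and most carry chondroitin, dermatan or keratan sulfate chains. Several also bind growth factors such as TGF-beta, and free biglycan and decorin can act on Toll-like receptors. Versican binds hyaluronan through its link domain and carries many chondroitin sulfate chains, and it is known for its part in the swelling matrix of the developing heart and its valves. In heart tissue the fibroblasts are regarded as the main source of most of these genes.

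Cardiomyocyte markers were abundant in all 6 libraries, with the troponin gene Tnnt2 at 3658 ± 282 and 3029.7 ± 206 FPKM with vehicle and perhexiline (mean ± SD, n = 3 per group, as throughout). FPKM is the number of sequenced fragments per kilobase of gene, scaled to the size of the library. The fibroblast marker Tcf21, a transcription factor, stood at 26.9 ± 2.39 and 28.2 ± 1.20 FPKM. In such bulk RNA, fewer cells of a type cannot be told apart from less RNA per cell. Fragments recovered from the values numbered 13616252 to 16702523 per library.

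Decorin was the 1 member that rose with perhexiline, and no member fell. Among 7 members that passed the filter on low values (at least 1 FPKM in at least 3 libraries), 1 was called higher by limma at an adjusted p under 0.05, beside 6.66% of all 13460 tested genes called in either direction, 3.55% called higher and 3.11% called lower. Asporin did not pass the filter and was not tested. The 7 differences in log2(FPKM + 1) had a median of 0.065, beside 0.012 over all tested genes. Of the 7, 4 were above 0 and 3 below, beside 52.9% of all tested genes above 0. The groups of libraries did not overlap for 2 of the 7, Dcn and Bgn, both higher with perhexiline, beside 31.9% of all tested genes separated in either direction and 17.0% in that direction.

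**Figure D1:**
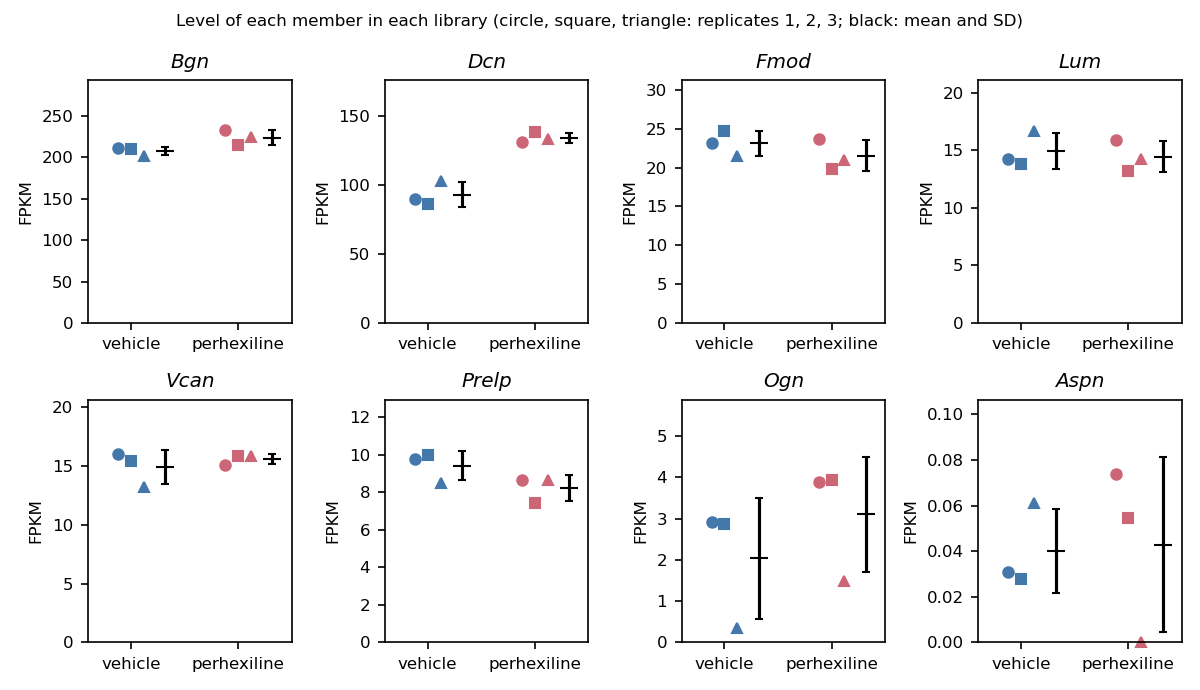
FPKM of each of the 8 genes in every library, with vehicle in blue, perhexiline in red, replicates 1, 2 and 3 as circle, square and triangle, and the group mean and SD in black; every vertical axis starts at 0 and each panel has its own scale. Dcn with perhexiline lies between 131 and 138 FPKM, above all vehicle libraries, while the groups of Lum, Fmod, Vcan, Prelp, Ogn and Aspn overlap.

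In both groups the order of levels was led by Bgn and Dcn, which together made up 82.3% ± 0.999 of the summed FPKM of the 8 genes with vehicle and 85.0% ± 0.583 with perhexiline. With vehicle, Bgn was followed by Dcn, Fmod, Lum, Vcan, Prelp, Ogn and Aspn, and Lum and Vcan were the 1 pair of neighbours whose ranges over libraries overlapped. With perhexiline, Vcan stood before Lum, again with overlapping ranges, and the rest of the order was the same. The 8 genes summed to 363 to 368 FPKM with vehicle and to 413 to 431 FPKM with perhexiline. Mean Dcn went from 93.1 to 134 FPKM and mean Bgn from 208 to 224 FPKM, so the higher sum largely repeats these genes. Bgn ranked 307 and Dcn 805 by mean FPKM among the 34257 genes with vehicle, and 281 and 498 with perhexiline.

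Dcn encodes decorin, which coats collagen fibrils, binds TGF-beta and can restrain the receptors EGFR and MET (chromosome 7, 38742051 to 38782323, plus strand, a protein-coding gene; positions follow the table, and no source at hand names its build). Its level was 89.8, 86.2 and 103 FPKM in vehicle replicates 1, 2 and 3 and 131, 138 and 133 FPKM in perhexiline replicates 1, 2 and 3. All perhexiline libraries were higher than all vehicle libraries, of which replicate 3 was the highest. The mean rose from 93.1 ± 8.90 to 134 ± 3.75 FPKM, a ratio of 1.44. The log2 difference was 0.53 ± 0.070 (SE), with a 95% interval of 1.29-fold to 1.61-fold (limma adjusted p = 0.0138). Dcn rested on 2301 to 4328 fragments per library, so counting alone would give a coefficient of variation of 2.01% with vehicle and 1.54% with perhexiline, and the measured ones were 9.56% and 2.80%. By p it ranked 96 of the 13460 tested genes, and by size 160 among the 478 genes called higher. The call was lost on leaving out vehicle replicate 1 (limma adjusted p = 0.0564), and likewise perhexiline replicate 2 (0.0529) and perhexiline replicate 3 (0.06), while the difference stayed between 0.47 and 0.60 over the 6 fits without 1 library.

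Bgn, the closest relative of Dcn in sequence and role, encodes biglycan, which also binds collagen and, when free, can activate Toll-like receptors (chromosome X, 157319046 to 157331204, minus strand). Its level was 212, 209.6 and 202 FPKM in the vehicle libraries and 233, 214 and 224 FPKM in the perhexiline libraries. The groups did not overlap, but perhexiline replicate 2 was close to vehicle replicate 1. The means were 208 ± 5.19 and 224 ± 9.29 FPKM, and the log2 difference of 0.11 ± 0.049 (SE) did not pass (limma adjusted p = 0.218). Its 95% interval ran from 0.995-fold to 1.17-fold. Under scaling to total fragments the Bgn difference was 0.16 (limma adjusted p = 0.0656).

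The 3 genes of the class that carries keratan sulfate or lacks chains showed no call. Lum encodes lumican, which regulates collagen fibril assembly (chromosome 7, 38819771 to 38826862, plus strand). It stood at 14.2, 13.9 and 16.7 FPKM with vehicle and at 15.9, 13.2 and 14.3 FPKM with perhexiline. The highest library was vehicle replicate 3 and the lowest perhexiline replicate 2, and the groups overlapped. The log2 difference was -0.043 ± 0.094 (SE; limma adjusted p = 0.808), with an interval of 0.834-fold to 1.13-fold, and its sign changed under total-fragment scaling (0.0097). Without vehicle replicate 3 it was 0.036 and without perhexiline replicate 2 it was 0.017, so either library decided the sign.

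Fmod encodes fibromodulin, which guides collagen cross-linking (chromosome 13, 50873605 to 50885563, plus strand). Its level was 23.2, 24.7 and 21.5 FPKM with vehicle and 23.7, 19.8 and 21.0 FPKM with perhexiline, with perhexiline replicate 1 inside the vehicle range. The log2 difference was -0.10 ± 0.082 (SE; limma adjusted p = 0.477), with an interval of 0.817-fold to 1.06-fold, and leaving out vehicle replicate 2 gave -0.053, perhexiline replicate 1 gave -0.17 and perhexiline replicate 2 gave -0.046. Prelp encodes prolargin, which links collagen to basement membranes through a heparin-binding end (chromosome 13, 50749514 to 50761355, minus strand). It stood at 9.79, 9.96 and 8.51 FPKM with vehicle and at 8.64, 7.41 and 8.64 FPKM with perhexiline. Vehicle replicate 3 lay below 2 of the perhexiline libraries, so the groups overlapped. The log2 difference was -0.17 ± 0.089 (SE; limma adjusted p = 0.263), with an interval of 0.767-fold to 1.02-fold, and it was -0.11 without perhexiline replicate 2.

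Vcan encodes versican (chromosome 2, 18490102 to 18565842, minus strand). Its level was 16.0, 15.4 and 13.2 FPKM with vehicle and 15.1, 15.8 and 15.9 FPKM with perhexiline. Vehicle replicate 3 was the lowest library, and the 3 perhexiline libraries lay between the lowest and the highest vehicle library. The log2 difference was 0.065 ± 0.078 (SE; limma adjusted p = 0.644), with an interval of 0.921-fold to 1.19-fold, and without vehicle replicate 3 it was -0.012. A second row without a gene name, described in the table as versican core protein and lying 10.2 kb beyond the start of Vcan on the same strand (chromosome 2, 18576051 to 18587764), was seen after the values were known. It held 36 to 64 fragments per library, at 3.05 ± 0.280 and 3.57 ± 0.308 FPKM (limma adjusted p = 0.316), so the Vcan row may not hold all fragments of the gene. The splice forms of versican, which differ in their chain-bearing exons, were not separated in the table.

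**Figure D2:**
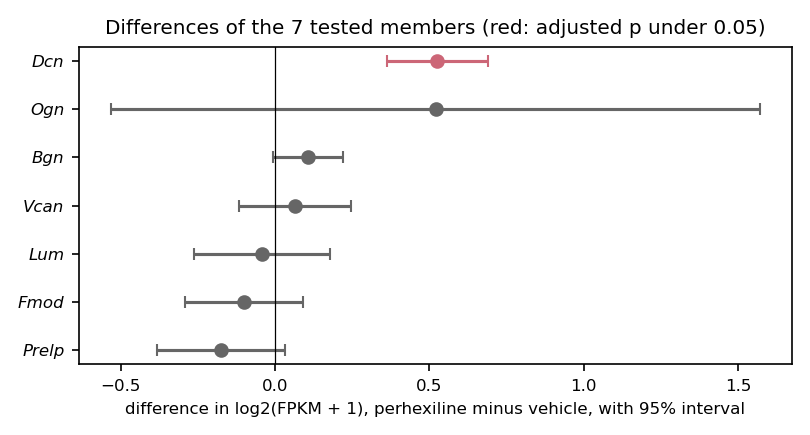
Difference in log2(FPKM + 1) between perhexiline and vehicle for the 7 tested genes, as points with 95% intervals from limma, red where the adjusted p was under 0.05. The interval of Dcn lies above 0 at 0.36 to 0.69, the others include 0, and that of Ogn is the widest at -0.53 to 1.57.

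Ogn and Aspn could not be read in the same way, because the table lists their chromosome 17 neighbourhood in duplicate. Ogn encodes osteoglycin, also called mimecan, a collagen-binding member of the family (chromosome 17, 14607442 to 14627937, minus strand), and a second osteoglycin gene, NEWGENE_1308171, lies at 15447716 to 15467359. Ogn stood at 2.91, 2.86 and 0.351 FPKM with vehicle and at 3.88, 3.94 and 1.49 FPKM with perhexiline. Replicate 3 was the lowest library of both groups. The log2 difference was 0.52 ± 0.45 (SE; limma adjusted p = 0.507), with an interval of 0.693-fold to 2.97-fold. It was 0.012 without vehicle replicate 3, 0.85 without perhexiline replicate 3 and 0.94 with limma-voom on the fragments, so its size rested on single libraries and on the scale.

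In recovered fragments, Ogn had 106, 116 and 13 with vehicle and 178, 164 and 69 with perhexiline. NEWGENE_1308171 had 95 fragments in vehicle replicate 2 and 4 to 6 in each of the other 5 libraries. The sum of both ran from 17 in vehicle replicate 3 to 211 in vehicle replicate 2, so adding the copies did not bring the vehicle libraries together. The coefficient of variation of Ogn was 71.7% with vehicle and 45.0% with perhexiline, while counting alone would give 11.3% and 8.54%.

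Aspn encodes asporin, which binds collagen, calcium and TGF-beta (chromosome 17, 15495790 to 15519282, minus strand, within the span of Cenpp on the other strand, from which its reads cannot be told apart unless strand was used in counting). It had 1, 1 and 2 fragments with vehicle and 3, 2 and 0 with perhexiline, or 0.0310, 0.0279 and 0.0611 FPKM and 0.0740, 0.0544 and 0 FPKM. These counts are at or under 3 fragments, the number that a count of 0 still allows, which for this gene is worth 0.0735 to 0.0931 FPKM depending on the library. No fold is given for it. The second asporin gene, Aspnl1 (14656009 to 14679409), had 29 fragments in vehicle replicate 2, 21 in perhexiline replicate 3 and at most 4 elsewhere. Omd and Ecm2, the other family genes of this cluster, are also listed in duplicate, and both rows of Omd together had 1 fragment over all libraries. The sequences of the paired loci were not compared. How any fragments that match both loci of a gene were counted is not stated in the sources at hand. The levels of Ogn and Aspn are therefore uncertain.

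**Figure D3:**
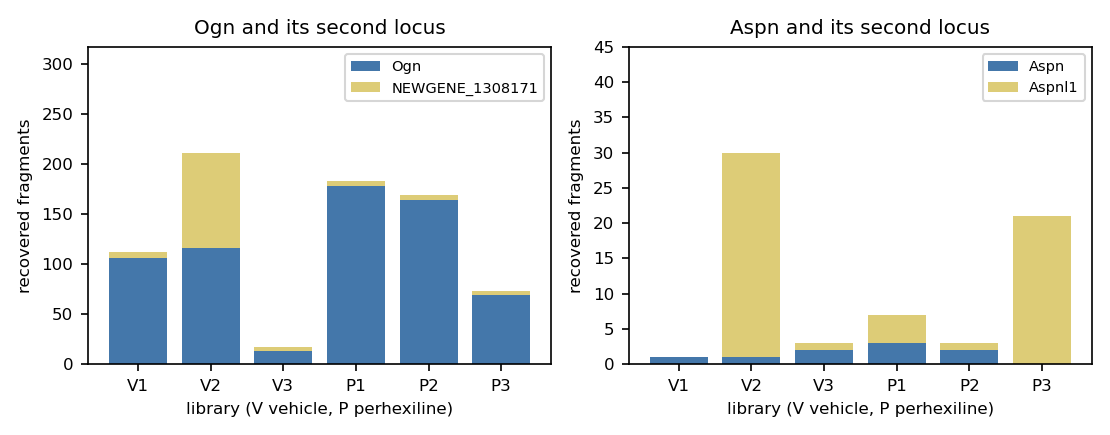
Recovered fragments per library (V, vehicle; P, perhexiline; numbers are replicates) on Ogn and Aspn in blue and on the second locus of each gene in yellow, stacked. The second osteoglycin locus holds 95 fragments in vehicle replicate 2 and at most 6 elsewhere, and the second asporin locus holds 29 in vehicle replicate 2 and 21 in perhexiline replicate 3.

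Family genes lie in clusters, and of the family genes next to Dcn only Lum was tested. Lum starts 37.4 kb beyond the end of Dcn on the same strand, and the next genes, Kera (keratocan, a corneal proteoglycan) and Epyc (epiphycan, of cartilage), were at 0 in all libraries and at 0.270 ± 0.0972 and 0.337 ± 0.137 FPKM, under the filter. On chromosome 13, Optc (opticin) lies 3.16 kb from Prelp and stood at 0.601 ± 0.236 and 0.408 ± 0.0983 FPKM, under the filter, and Fmod lies 112 kb from Prelp. Of 11 further family genes in the list, 10 were in the table and 1 passed the filter. That gene, Tsku, encodes tsukushi, a secreted inhibitor of BMP and Wnt signals, and stood at 5.81 ± 0.884 and 7.76 ± 0.164 FPKM (limma adjusted p = 0.0731).

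Ratios within a library do not depend on how libraries are scaled. The ratio of Dcn to Bgn was 0.425, 0.411 and 0.511 in the vehicle libraries and 0.562, 0.645 and 0.594 in the perhexiline libraries. The ratio of Dcn to its neighbour Lum was 6.30, 6.22 and 6.17 with vehicle and 8.21, 10.5 and 9.35 with perhexiline. For Bgn, Lum, Fmod, Prelp and Vcan as denominators all perhexiline libraries had the higher ratio, by 0.42 to 0.73 on the log2 scale, and for Ogn the ratio moved the other way, by -0.46, with overlapping groups. The same separation was seen with the collagen genes Col1a1 (0.174 ± 0.0225 against 0.281 ± 0.0102) and Col3a1 (0.479 ± 0.0554 against 0.881 ± 0.0913) and with Tcf21 (3.46 ± 0.209 against 4.77 ± 0.208). The ratio to Pdgfra, the PDGF receptor gene of fibroblasts, which also rose, was 2.80 ± 0.144 and 3.01 ± 0.232, with overlapping groups. In exact two-sided permutation tests of these 10 ratios, p was 0.1 for the 8 separated ones, the smallest that 3 against 3 libraries allow (adjusted p = 0.125), 0.3 for Pdgfra and 1 for Ogn, so the design could not reach the threshold. The 4 denominators outside the family were chosen after their values were seen. Dcn, the numerator throughout, was already the called member, so the ratios are no separate support for its rise.

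**Figure D4:**
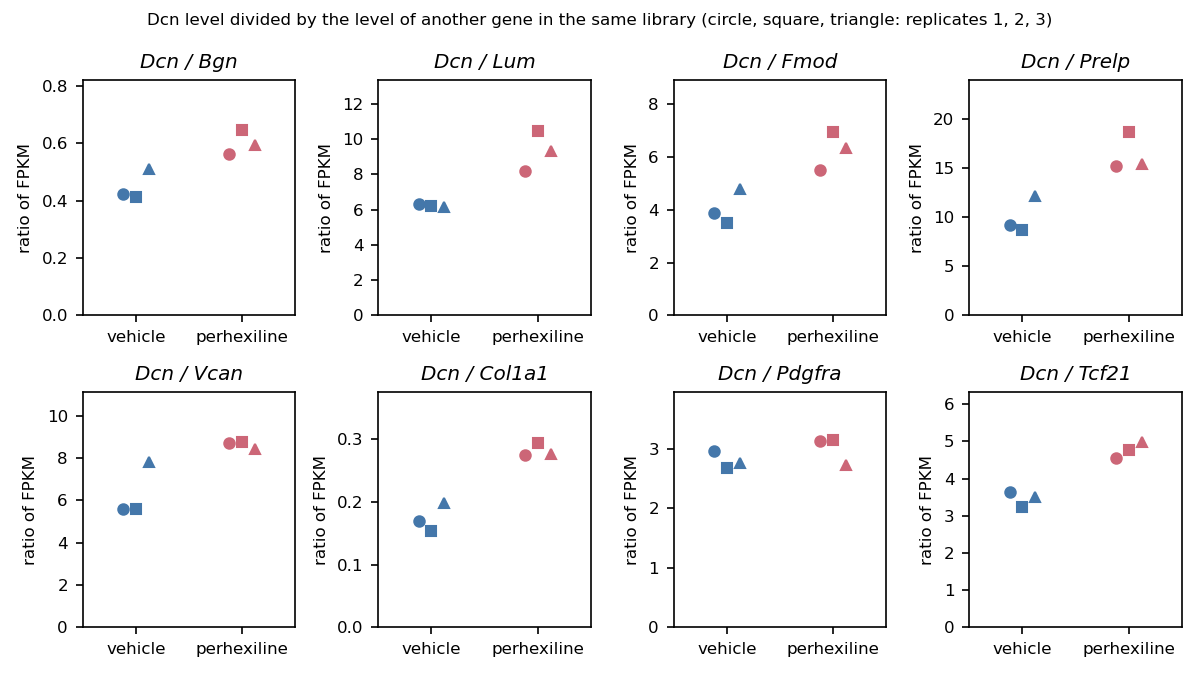
Dcn FPKM divided by the FPKM of another gene in the same library, with vehicle in blue, perhexiline in red and replicates 1, 2 and 3 as circle, square and triangle; axes start at 0. All perhexiline libraries lie above all vehicle libraries for Bgn, Lum, Fmod, Prelp, Vcan, Col1a1 and Tcf21, and the groups overlap for Pdgfra. The ratios to Col3a1 and Ogn are not drawn, and that to Ogn moved the other way (-0.46 on the log2 scale) with overlapping groups.

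Collagens and other matrix proteins that bind these proteoglycans mostly had lower values with perhexiline. Of 17 tested, 3 fell and none was called higher, beside 3.11% of all tested genes called lower. The median log2 difference was -0.17, and 15 of 17 differences were below 0, beside 52.9% of all tested genes above 0. The 2 above 0 were Fn1 (348 ± 27.4 to 418 ± 13.1 FPKM, limma adjusted p = 0.0561) and Tnc (16.5 ± 0.916 to 18.2 ± 0.346 FPKM, 0.192), each higher in all perhexiline libraries. The same background, with 3.55% called higher, stands beside the counts of the lists that follow. Col14a1, a fibril-associated collagen to which decorin binds, went from 42.9 ± 1.26 to 31.8 ± 2.64 FPKM (limma adjusted p = 0.0207). Col3a1, a fibrillar collagen, went from 195 ± 4.93 to 153 ± 11.1 FPKM (0.0251), and Eln, the elastic fibre protein elastin, from 75.9 ± 3.02 to 47.0 ± 10.1 FPKM (0.034). The 3 calls were all lost on leaving out vehicle replicate 1, vehicle replicate 2 or perhexiline replicate 3, those of Col14a1 and Col3a1 also without perhexiline replicate 2, and that of Eln also without vehicle replicate 3. These genes were mostly lower while Dcn was higher in the same libraries. The collagen and the decorin comparisons share all 6 libraries.

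Enzymes that build and sulfate the sugar chains had 3 rises and no fall among 31 tested, with a median log2 difference of 0.092. Ugdh, which makes the glucuronic acid donor of chondroitin and dermatan sulfate, went from 22.6 ± 0.160 to 30.5 ± 1.60 FPKM (limma adjusted p = 0.0127). Chst2, a sulfotransferase that acts on N-acetylglucosamine as in keratan sulfate, went from 9.96 ± 1.01 to 13.9 ± 0.393 FPKM (0.028), and the galactosyltransferase B4galt1 from 36.6 ± 1.34 to 44.3 ± 2.81 FPKM (0.0429). None of the 3 passed without vehicle replicate 1, and Ugdh alone of them without vehicle replicate 2, or perhexiline replicate 2 or 3. B4galt1 was also lost without vehicle replicate 3.

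Of 10 tested genes of other hyaluronan-binding proteoglycans and of hyaluronan synthesis, binding and breakdown, 1 was called higher and none lower. The median log2 difference was 0.13, with 8 differences above 0 and 2 below. The called gene was Cemip2, a cell surface hyaluronidase, from 11.2 ± 0.216 to 15.9 ± 1.65 FPKM (limma adjusted p = 0.0244). Its call held only on leaving out vehicle replicate 3 or perhexiline replicate 1. Cemip, of the same list, was lower in all perhexiline libraries, at 27.4 ± 1.17 and 21.1 ± 3.48 FPKM, and did not pass (limma adjusted p = 0.0917). Of the other large proteoglycans of the versican family, Acan stood at 0.143 ± 0.0545 and 0.0532 ± 0.0421 FPKM, and Ncan and Bcan had at most 2 fragments in any library.

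Among proteases that cut versican or process the small proteoglycans and procollagen, with their inhibitor and enhancers, 2 rose and 1 fell of 14 tested, with a median log2 difference of 0.0012. The gelatinase gene Mmp2 went from 289 ± 24.2 to 375 ± 22.4 FPKM (limma adjusted p = 0.0329) and the stromelysin gene Mmp3 from 0.443 ± 0.240 to 1.83 ± 0.227 FPKM (0.022). Mmp3 had 11, 5 and 16 fragments with vehicle and reached 1 FPKM only in the perhexiline libraries. It thus met the filter only through the group where it was high, and a rise was favoured by its being tested. Timp3, an inhibitor of versican-cutting ADAMTS proteases, went from 33.2 ± 0.473 to 27.7 ± 1.73 FPKM (0.0449). On leaving out vehicle replicate 1 or 2, or perhexiline replicate 2 or 3, these 3 calls were lost, and that of Timp3 also without vehicle replicate 3. Of the tested versicanase genes Adamts1, Adamts5, Adamts8, Adamts9, Adamts15 and Adamts20, none passed. Adamts5 was lower in all perhexiline libraries, at 23.0 ± 1.28 and 17.9 ± 2.05 FPKM (limma adjusted p = 0.0579). Adamts8 (0.123) and Adamts20 (0.3) were higher in all of them, as was Adamts4, which was under the filter. The groups of Adamts1, Adamts9 and Adamts15 overlapped. Of all tested genes, 31.9% were separated in either direction.

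The TGF-beta genes had 2 rises and no fall among 19 tested, with a median log2 difference of 0.064. Eng, a TGF-beta co-receptor of endothelial and other cells, went from 67.9 ± 2.88 to 81.4 ± 0.567 FPKM (limma adjusted p = 0.0277) and Skil, a corepressor of SMAD proteins, from 17.3 ± 1.51 to 23.3 ± 1.89 FPKM (0.0343). Of the 6 fits without 1 library, Eng passed in the one without vehicle replicate 3 and Skil in the one without perhexiline replicate 1. Tgfb1, the ligand that decorin and biglycan can bind, was measured at 17.3 ± 0.849 and 18.9 ± 0.556 FPKM, a difference that did not pass (0.245).

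Of 12 tested receptors and adaptors for free proteoglycans, 2 rose and 1 fell, with a median log2 difference of 0.090. Tlr2, a receptor for free biglycan, went from 3.72 ± 0.238 to 5.36 ± 0.218 FPKM (limma adjusted p = 0.0309), and its adaptor Myd88 from 9.61 ± 0.390 to 12.6 ± 1.29 FPKM (0.0466). Selplg, a selectin ligand of leukocytes that binds versican, went from 18.7 ± 1.05 to 13.0 ± 1.78 FPKM (0.0315). Tlr2 and Selplg passed only in the fits without vehicle replicate 3 or perhexiline replicate 1, and Myd88 in none of the 6 fits without 1 library.

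Other proteoglycan core proteins had 2 rises and 1 fall among 16 tested, with a median log2 difference of -0.15. Sdc4, a syndecan of focal adhesions with heparan sulfate chains, stood at 39.8, 39.1 and 38.0 FPKM with vehicle and at 54.5, 59.9 and 51.8 FPKM with perhexiline (limma adjusted p = 0.0115). It was the 1 gene of 29 called outside the members that passed in all 6 fits without 1 library. Prg4, the lubricant proteoglycan lubricin, went from 1.51 ± 0.149 to 4.09 ± 1.30 FPKM (0.0327) and the glypican gene Gpc3 from 51.3 ± 1.82 to 38.0 ± 4.44 FPKM (0.0315). Both passed only in the fit without perhexiline replicate 1.

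**Figure D5:**
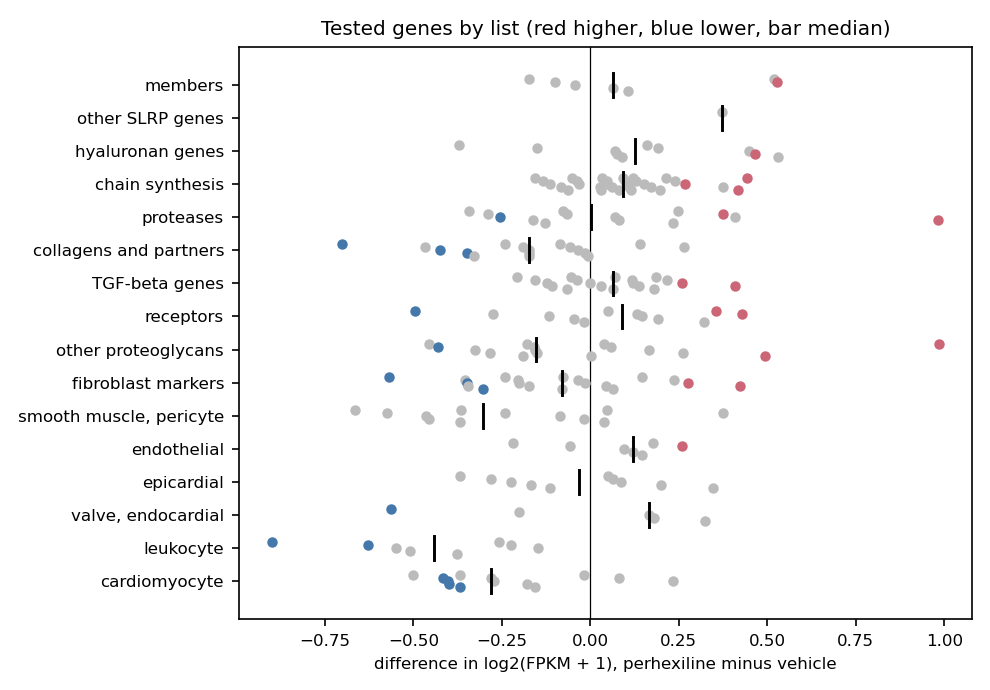
Difference in log2(FPKM + 1) between perhexiline and vehicle for every tested gene of the 8 family genes and of 15 other lists, with called genes in red (higher) and blue (lower) and the list median as a bar. Collagens and partners lean below 0 with a median of -0.17, while Dcn lies at 0.53.

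Markers of several cell types moved in these libraries, and their part in the decorin difference was not tested. Of 19 tested fibroblast markers, which share genes with the collagen list, 2 rose and 3 fell, and their summed level was 1734 to 1841 FPKM with vehicle and 1581 to 1659 with perhexiline. Loxl1, a cross-linking enzyme, rose from 53.9 ± 2.38 to 65.3 ± 1.10 FPKM (limma adjusted p = 0.0261), and Pdgfra from 33.2 ± 3.56 to 44.8 ± 3.57 FPKM (0.0373). The falls were those of Vim, an intermediate filament gene (281 ± 5.68 to 228 ± 13.2 FPKM, 0.0258), Col3a1 and Thy1, a surface antigen of fibroblasts (3.81 ± 0.223 to 2.25 ± 0.353 FPKM, 0.0315). Tcf21 did not pass (0.617), and the median log2 difference of the list was -0.079. Most marker calls were lost in several of the 6 fits without 1 library, while their direction was kept. Loxl1, Pdgfra, Vim, Col3a1, Mrc1, Actn2 and Tnni3 passed only without vehicle replicate 3 or perhexiline replicate 1, and Thy1, C1qa and Myh6 only without vehicle replicate 3. Npr3 passed in the fits without vehicle replicate 3, perhexiline replicate 1 or perhexiline replicate 2. Calls over all genes likewise fell from 896 to 142 or fewer without vehicle replicate 1 or 2, or perhexiline replicate 2 or 3.

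Cardiomyocyte markers had 4 falls and no rise among 13 tested, with a summed level of 21042 to 26249 FPKM with vehicle and 18830 to 21861 with perhexiline. Actn2, Tnni3 and Myh6, genes of the contractile apparatus, fell to 0.758, 0.75 and 0.756 times their vehicle means (limma adjusted p = 0.0294, 0.0373 and 0.039). Leukocyte markers had 2 falls among 8 tested, those of the macrophage genes Mrc1 (5.01 ± 0.638 to 2.24 ± 0.568 FPKM, limma adjusted p = 0.0221) and C1qa (0.0451), and summed to 86.1 to 93.1 FPKM with vehicle and 46.4 to 72.7 with perhexiline. The T cell gene Cd3e was at 0 in every library. The median log2 difference was -0.28 for the cardiomyocyte and -0.44 for the leukocyte markers.

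Endothelial markers had 1 rise among 7 tested, that of Eng again, and summed to 84.4 to 91.3 FPKM with vehicle and 103 to 104 with perhexiline, with Cldn5 at 0 throughout. Eng alone, at 67.9 ± 2.88 and 81.4 ± 0.567 FPKM, made up most of that sum, so the sum largely repeats the rise of Eng. None of 12 tested smooth muscle and pericyte markers passed (1333 to 1835 FPKM in sum with vehicle and 1202 to 1438 with perhexiline), and the most abundant was Acta2 at 697 ± 149 and 464 ± 72.0 FPKM (limma adjusted p = 0.0871). None of 10 epicardial markers passed (64.4 to 69.6 and 58.5 to 73.2 FPKM in sum), the most abundant being Aldh1a2 at 19.6 ± 0.796 and 17.4 ± 0.675 FPKM (limma adjusted p = 0.124). Of 5 tested valve and endocardial markers Npr3, a natriuretic peptide clearance receptor, fell from 16.2 ± 0.358 to 10.7 ± 1.56 FPKM (limma adjusted p = 0.0256), and the list summed to 48.5 to 52.6 and 43.5 to 45.9 FPKM. The median log2 differences of the endothelial, smooth muscle, epicardial and valve lists were 0.12, -0.30, -0.033 and 0.16.

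The members did not vary as 1 block over the 6 libraries. Pearson correlations of log2(FPKM + 1) between the 7 tested members, given as a description over libraries that share their groups and scaling, ran from -0.84 for Dcn with Prelp to 0.85 for Fmod with Prelp. Among 8808 protein-coding genes with a mean of at least 5 FPKM, the profiles most like that of Dcn over the 6 libraries were those of RGD1359127 (r = 0.996) and Fam118b (r = 0.993), and 209 genes reached an r of 0.95. For Bgn they were RT1-S3 (0.988), an MHC class I gene with close paralogs, and the riboflavin transporter gene Slc52a2 (0.985), and for Vcan Ttc7b (0.986) and the calcium channel gene Cacna1h (0.985). Fmod was closest to the DNA repair gene Xrcc1 (0.998) and the corepressor gene Tle2 (0.99), and Prelp to Flii (0.993) and Sh3rf3 (0.991). Lum had LOC680121 (0.972) and Mosmo (0.969) nearest, and Ogn LOC103693430 (0.985) and the clusterin gene Clu (0.984). An r of 0.95 was reached by 93 genes for Prelp, 31 for Fmod, 20 for Vcan, 18 for Ogn, 9 for Bgn and 4 for Lum. With 6 libraries, the highest values picked among 8808 genes are no test.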

How the data were processed

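The authors deposited 1 FPKM value for each gene in each of the 6 libraries, per the file headers. HISAT2 2.0.5 and DESeq2 are named, without a role, per the submitters' processing notes. For the build, annotation, counting program and use of strand, the sources used here name nothing. FPKM times gene length gave whole multiples of 1 step per library for 100% of positive values within 0.01. These multiples were taken as fragments, with counting error only behind the counting coefficients of variation. No 2 libraries were identical.

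The test, on log2(FPKM + 1), which understates changes of low genes, covered genes reaching 1 FPKM in 3 or more libraries and used limma 3.58.1 in R 4.3.3 (mean-variance trend, two-sided, group as the only term), with Benjamini-Hochberg adjustment over all 13460 tested genes. All adjusted p-values of genes are from this fit, and folds in intervals are on that scale. The procedure was also run on simulated counts with planted changes and the same dispersion setting for every gene. That run does not show how calls fare at the spread of these libraries. The members and the 15 other lists (235 of 246 symbols, members included, were in the table) were chosen with earlier results of these data known. Named genes were the 8 members, in each list the called genes lowest in adjusted p, at most 3, or failing any the most abundant tested one, family genes next to a member, and the 2 genes most correlated with each tested member. Others are said to be chosen later or are given as context. Alternatives covered filters, pseudocounts, scalings, limma-voom, a replicate block and each library left out.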

Additional observations from a re-analysis of the deposited data

How the results depend on the processing

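Of all tested genes, 478 were higher and 418 lower, and the counts were 99 and 63 when low genes were kept, 757 and 805 for limma-voom fitted to fragments, 101 and 72 with the replicate number as a replicate block, and 56 to 416 and 30 to 449 with 1 library left out. Under total-fragment scaling 815 were higher, 70.7% of the calls against 53.3%. The median log2 difference over tested genes was 0.062 under that scaling and 0.012 on the deposited scale, which thus sets the perhexiline libraries lower. Deviations over all tested genes gave no sign that replicate numbers pair the libraries (correlations -0.0228, -0.101 and -0.0387), which does not exclude a pairing. With the block Dcn kept its call (limma adjusted p = 0.0467). Ogn, lowest in replicate 3 of both groups, had an SE of 0.15 with the block and 0.45 without it, and did not pass (limma adjusted p = 0.132 with the block). Dcn passed under 11 of 14 alternatives, with adjusted p of 0.0015 to 0.06, and the members called numbered 0 to 1 with 1 library left out, with the Dcn difference at 0.47 to 0.60 and no member lower. The Lum difference changed sign under total-fragment scaling (0.0097) and ran from -0.11 to 0.036 with 1 library left out, and that of Vcan from -0.012 to 0.12. Ogn, Bgn, Fmod and Prelp kept their direction and did not pass in any alternative that tested them, over ranges of 0.012 to 0.94, 0.078 to 0.16, -0.17 to -0.046 and -0.24 to -0.11. Of the 29 other list genes called, 1 passed in all 6 fits without 1 library, 2 were called with no filter and 4 with the block, while all 29 kept their direction in each of those fits. Aspn, at 0 to 3 fragments per library, had no tested difference.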

Other observations

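Hyaluronan is the chain to which versican binds. The 3 hyaluronan synthase genes, singled out after their values were seen, were each higher in all perhexiline libraries than in all vehicle libraries. Of all tested genes, 17.0% were separated in that direction. That share leaves out genes under the filter, such as Has2 and Has3, for which no share was computed. The separation of Has2 was as narrow as 0.853 against 0.858 FPKM, and 1 of the 3 genes was tested. Has1 stood at 2.70, 2.15 and 2.46 FPKM with vehicle and at 3.22, 4.04 and 3.83 FPKM with perhexiline and did not pass (limma adjusted p = 0.0562). Has2 stood at 0.853, 0.486 and 0.651 FPKM with vehicle and at 0.858, 1.39 and 1.35 FPKM with perhexiline, and Has3 at 0.410 ± 0.0713 and 0.540 ± 0.0409 FPKM, both under the filter on low values and not tested. Ecm2, a family gene of the chromosome 17 cluster, had 12, 6 and 2 fragments with vehicle and 0, 1 and 2 with perhexiline.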
